A study of Mus musculus with 4 samples.

Results

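The cells described here are GABAergic neurons of the mouse bed nucleus of the stria terminalis (BNST) in which the messenger of Penk, the gene for the enkephalin precursor, was or was not found. A barcode counted as a GABAergic neuron with at least 400 detected genes, at most 10% of its UMIs from mitochondrial genes, at least 0.6% of its UMIs from the neuronal genes Snap25, Syt1, Stmn2, Snhg11 and Meg3 together, and at least 1 UMI of Gad1, Gad2 or Slc32a1. A UMI is a molecular tag that counts 1 captured transcript. Penk-positive cells had at least 2 Penk UMIs, and Penk-negative cells had none and were matched 1 to 1 to positive cells on total UMIs within their library. Of 10200 barcodes, 2283 were GABAergic neurons and 541 of these were Penk-positive. The 541 matched negatives came from 1580 neurons without a Penk UMI, and 162 neurons with exactly 1 were placed in neither group.

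All cells came from 4 Drop-seq libraries, each made from tissue punches of the BNST pooled from 6 male wildtype C57BL/6J mice. No animal was treated, no second genotype or condition was profiled, and the age is not given in the sources used here. A library is therefore a pool of animals, and the comparison is between cells of the same pools, with 4 libraries as replicates. The tables held 14018026 UMIs over 20136 genes. Positive cells numbered 177, 115, 78 and 171 in libraries 1 to 4, with median UMIs per cell of 5325, 3759, 3139 and 2494, against 5348, 3737, 3171 and 2507 in their matched negatives. No barcode sequence occurred as a GABAergic neuron in more than 1 library, 11 sequences were shared between libraries among all 10200 barcodes, and 8 positive and 7 negative cells were called doublets.

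Penk encodes proenkephalin, a precursor that prohormone convertases cut at pairs of basic residues to release Met-enkephalin and Leu-enkephalin. These short peptides act on delta and mu opioid receptors, and peptidases on the cell surface break them down. In the striatum, Penk is the classical mark of indirect-pathway spiny neurons, which carry the dopamine D2 receptor, whereas direct-pathway neurons carry the D1 receptor, dynorphin and substance P. The BNST and the central amygdala, which together form much of the extended amygdala, also hold enkephalin neurons among several other peptidergic GABAergic types.

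Penk lies on chromosome 4 from 4133531 to 4138819 on the minus strand of GRCm38, and its transcript Penk-201 in GENCODE vM21 has 1449 bases in 2 exons, of which 807 are coding. Its coding sequence holds 7 copies of the enkephalin codons, 6 for Met-enkephalin and 1 for Leu-enkephalin, shown here because each counted transcript carries all of them. Capitals mark the enkephalin codons, 5′ to 3′, and the lower-case bases are the neighbouring codons, which encode a basic pair before every copy and after every copy but the fourth and the seventh.
Met-enkephalin copy 1: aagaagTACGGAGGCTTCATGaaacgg
Met-enkephalin copy 2: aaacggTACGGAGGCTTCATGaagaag
Met-enkephalin copy 3: aagaggTATGGCGGCTTCATGaagaag
Met-enkephalin copy 4: aagaggTATGGGGGCTTCATGagaagc
Met-enkephalin copy 5: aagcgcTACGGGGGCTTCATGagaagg
Leu-enkephalin, copy 6: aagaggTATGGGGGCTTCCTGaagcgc
Met-enkephalin copy 7: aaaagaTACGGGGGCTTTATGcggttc
The capitals begin at bases 298, 319, 406, 559, 631, 691 and 784 of the coding sequence. Penk overlaps A830012C17Rik on the opposite strand, which had 8 UMIs in all tables against 7438 of Penk.

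Penk-positive cells made up 24.5%, 24.4%, 19.5% and 24.8% of GABAergic neurons in libraries 1 to 4, a mean of 23.3% ± 2.57 (SD, n = 4). Because Penk chose the cells, its own values are a description without a test. The median positive cell held 6 Penk UMIs, the upper quartile began at 15, the highest cell had 103, and 243 cells had 8 or more. At the edge of the rule, 98 cells had exactly 2 Penk UMIs and 53 had 3, and the 162 cells with 1 lay just outside. Summed over positive cells, Penk stood at 1904, 2646, 2550 and 3774 CPM (counts scaled to a fixed total of all UMIs of the group), or 2719 ± 777 (SD, n = 4). For the other genes of the positive and negative sums, Penk UMIs were left out of that total. When every neuron was thinned to 1000 UMIs, leaving out 273 shallower ones, 14.8% ± 2.53 (SD, n = 4) kept 2 or more Penk UMIs.

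Penk UMIs were found less often in barcodes outside the GABAergic group, and whether these were stray transcripts was not tested. Among 1750 barcodes below the neuronal threshold, whose median depth was 1149 UMIs against 3362 in GABAergic neurons, 39 (2.23%, exact 95% binomial interval 1.59 to 3.03, counting error only) had 2 or more Penk UMIs. At 1000 UMIs, 3.52% of those barcodes and 22.9% of GABAergic neurons kept at least 1. Among neurons without a GABAergic UMI, 30 of 206 (14.6%) reached 2, at a median of 1336 UMIs.

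Penk-positive cells were spread unevenly over clusters of the GABAergic neurons. The neurons were clustered on their variable genes without Penk, which gave 18 clusters, called here by their 2 leading genes. Not all of these are clear GABAergic types. Mal/Cldn11 (13 of 61 cells positive) was led by non-neuronal genes and Slc17a6/Nrn1 (7 of 29) by a glutamatergic one, and Pianp/Myo9a (34 of 305) was of low depth. The highest share was in the Ppp1r1b/Crym cluster, where 82 of 149 cells (55.0%) were positive and the library values were 60.0%, 58.3%, 43.2% and 58.2%. It was the only cluster with at least 3 spiny-neuron markers among its 20 leading genes, so it is called spiny-like, and its positive cells held a median of 18 Penk UMIs. The Six3/Nrgn cluster held more positive cells than any other, 121 of 268 (45.1%), and its libraries lay close together at 45.5% ± 2.44 (SD, n = 4). It supplied 22.4% of all positive cells, and the spiny-like cluster 15.2%.

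High shares also occurred in the Prkcd/Tnfaip8 cluster (30 of 63 cells, 47.6%) and the Tshz1/Foxp2 cluster (39 of 102, 38.2%). The Slc17a8/A730046J19Rik cluster, led by a vesicular glutamate transporter gene found in some GABAergic neurons, had 65 of 192 (33.9%). In the Tac2/Ebf1 cluster 43 of 179 cells (24.02%) were positive, with a median of 16 Penk UMIs at a median depth of 9151 UMIs. In the Npy/Sst cluster 36 of 163 cells (22.1%) were positive, with a median of 4 Penk UMIs at the lower median depth of 2612 UMIs, so the 2 Penk medians are not comparable. At the other end stood the Cck/Esr2 cluster with 7 of 134 cells (5.22%) and the Zic1/Zic4 cluster with 1 of 130 (0.769%), at median depths of 6152 and 2971 UMIs. None of the 14 cells of the Pvalb/Pmp22 cluster was positive, which allows a share of up to 21.4%. The Prkcd/Tnfaip8 cluster varied most among the named clusters, from 28.6% to 71.4% over libraries of 14 to 21 cells. At the coarser clustering resolution of 0.5 the highest share was 48.5%, and at 1.5 it was 55.3%.

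**Figure D1:**
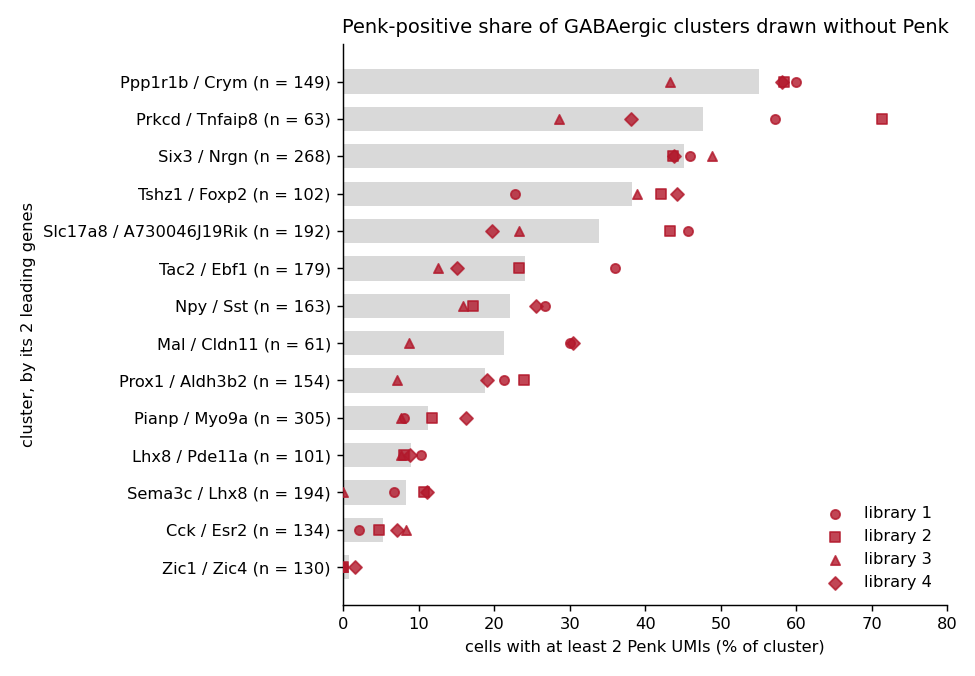
Penk-positive share of each cluster with at least 50 cells (bars, all cells pooled) and of its cells in each library with at least 10 of them (points), in percent of the cluster; clusters are named by their 2 leading genes. The Ppp1r1b/Crym and Six3/Nrgn clusters stand near the top at 55.0% and 45.1%, and the Zic1/Zic4 cluster at the bottom at 0.769%.

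Which other genes went with Penk was asked by summing UMIs per library and group and testing positive against negative sums with edgeR's quasi-likelihood test, with the library as a block and Benjamini-Hochberg adjustment over 7229 genes. At an adjusted p of 0.05, 418 genes were called, 5.78% of those tested; 240 were higher (3.32%) and 178 lower (2.46%) in Penk-positive cells. Of the 418, 382 moved the same way in all 4 libraries, and 37 rose and 36 fell by more than 2-fold. In 297 genes (4.11% of those tested) the 4 positive and the 4 negative libraries did not overlap, 175 of them among the called. A sum does not tell more cells with a transcript from more transcripts per cell. DESeq2 called 98 of the same 7229 genes (1.36%). Each library is a pool and served as a block. These p-values therefore concern the positive-minus-negative difference over 4 pools, and not a spread between animals. The test estimates each gene's spread partly from the other genes, so a very small p does not measure agreement among the 4 pools alone.

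Ebf1, a transcription factor of direct-pathway striatal neurons, showed the largest rise. It stood at 69.4, 48.0, 30.7 and 67.3 CPM in positive cells against 7.48, 6.23, 6.10 and 6.30 in negative cells, an 8.42-fold difference (log2 3.07 ± 0.32 SE, edgeR adjusted p = 2.68e-18). Only 41 positive cells carried an Ebf1 UMI, so a small part of the group held this difference. The spiny-like cluster went the other way, with Ebf1 in 2 of 82 positive cells and 11 of 64 cells without Penk. Ppp1r1b encodes DARPP-32, the dopamine-regulated phosphatase inhibitor of spiny neurons. It measured 121, 102, 193 and 250 CPM in positive cells against 36.5, 35.3, 6.10 and 77.7, a 3.84-fold rise (log2 1.94 ± 0.19). Arpp21, a cyclic AMP-regulated phosphoprotein, had the strongest support, with 900, 885, 987 and 1283 CPM against 358, 278, 235 and 391 (3.12-fold, log2 1.64 ± 0.08, edgeR adjusted p = 2.84e-70). None of these 3 genes overlapped between the groups.

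The other large rises were those of Tnnt2 (log2 1.74), Itpka, an inositol trisphosphate kinase (1.69), Crym, a thyroid hormone-binding protein (1.51), Mctp1 (1.49), the collagen gene Col6a1 (1.45), Filip1 (1.43), Ramp1, a co-receptor of calcitonin-family receptors (1.37), and the tyrosine kinase gene Ptk2b (1.36). Each rose in all 4 libraries, with 77 to 263 UMIs in positive and 28 to 103 in negative cells. The rise of Crym was 1.66 with an edgeR adjusted p of 0.0912 without library 4. Ppp1r1b, Arpp21 and Mctp1 overlap a gene on the other strand, and the strand used in counting is not given in the sources used here, so reads of such partners cannot be separated from theirs. The same limit holds for Nfix, Nfib, Zic1, Gnal, Pde10a, Six3, Nr2f2, Junb, Ddc, Grm8 and Dlx6os1 below.

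Cck, the cholecystokinin precursor, fell furthest. Its level was 23.1, 31.3, 162 and 63.1 CPM in positive cells against 276, 309, 738 and 323 in negative cells, 6.81-fold lower (log2 -2.77 ± 0.13 SE, edgeR adjusted p = 2.94e-35). Fam159b was 6.41-fold lower, with 17 UMIs against 112, and 17.9% of the latter came from 1 cell. Zic1, a zinc-finger factor of septal and thalamic lineages, was at 12.0, 20.9, 12.3 and 16.8 CPM against 58.0, 58.2, 149 and 158 (6.02-fold lower, log2 -2.59 ± 0.24). Id2, an inhibitor of helix-loop-helix factors, was at 36.1, 12.5, 9.20 and 25.2 CPM against 112, 62.3, 79.3 and 81.9 (3.67-fold lower, log2 -1.88 ± 0.22). All of these separated the groups without overlap. Fhad1 (log2 -2.02), Fam107a (-1.90), the nuclear factor I genes Nfix (-1.81) and Nfib (-1.65), the imprinted zinc-finger gene Plagl1 (-1.75) and A230065H16Rik (-1.68) completed the 12 largest falls with Lhx8 and Satb1.

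**Figure D2:**
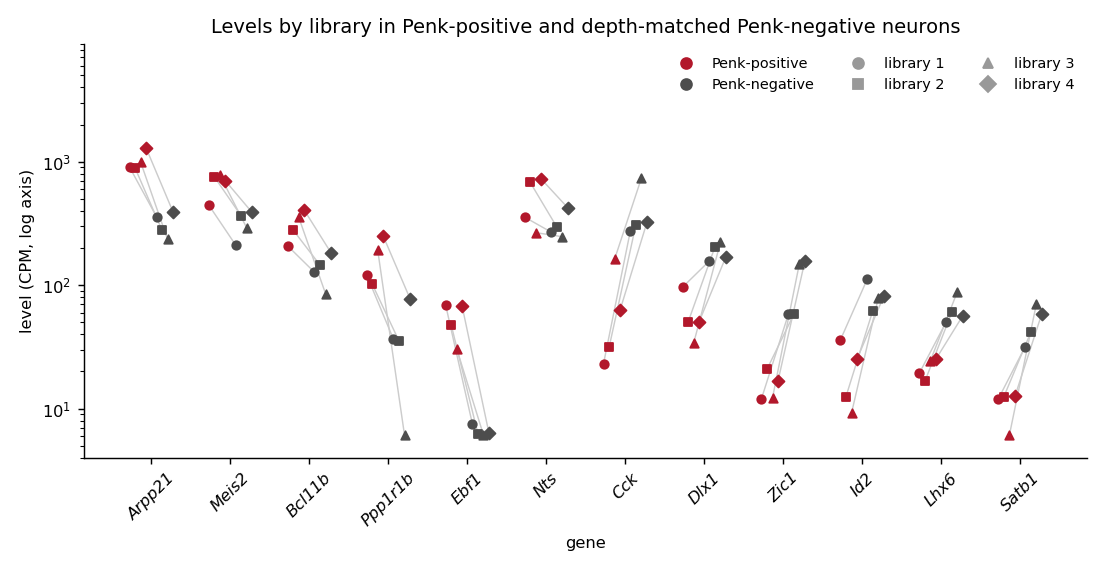
Level of 12 genes (CPM, log axis) in Penk-positive (red) and depth-matched Penk-negative (grey) neurons, with 1 point per library and a line joining the groups of each library. Arpp21, Ppp1r1b and Ebf1 lie higher in the positive cells of every library, and Cck, Zic1, Id2, Lhx6 and Satb1 lower.

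Among the other members of the opioid system, no gene was called of 4 tested, against 5.78% of all genes. Pdyn, the dynorphin precursor, was at 34.2, 48.0, 24.5 and 42.1 CPM in positive cells against 42.1, 54.0, 39.6 and 35.7 (log2 -0.20 ± 0.23 SE, edgeR adjusted p = 0.772), so the groups overlapped. Pnoc, the nociceptin precursor, was at 147, 81.4, 15.3 and 71.5 CPM against 195, 162, 244 and 179. It was lower in all 4 libraries without overlap (log2 -1.03 ± 0.49), yet did not pass the test (edgeR adjusted p = 0.491). Its value rested on which library was included, with -1.64 and an edgeR adjusted p of 9.12e-08 without library 1, and -0.72 and 0.00021 without library 3. Without library 2 or 4 it was -1.06 and -0.98, with edgeR adjusted p of 0.733 and 0.728. Pnoc UMIs were found in 24.3%, 12.2%, 6.41% and 7.02% of positive cells and in 28.3%, 22.6%, 26.9% and 16.4% of negative cells.

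The opioid receptor genes were sparsely counted. Oprk1, the kappa receptor, had 86 UMIs in positive and 78 in negative cells (log2 0.12, edgeR adjusted p = 0.893). Oprl1, the nociceptin receptor, had 119 against 167 UMIs and was lower in all 4 libraries without passing the test (log2 -0.48 ± 0.19, edgeR adjusted p = 0.147). Oprm1, the mu receptor, had 16 against 13 UMIs and Oprd1, the delta receptor, 8 against 5, too few to be tested. Of 6 peptidases that degrade enkephalins, Npepps and 2 others were tested and none was called, against 5.78% of all genes. Anpep had no UMI in either group.

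Of 9 other neuropeptide precursors tested, Nts rose and Cck fell, against 3.32% of all genes higher and 2.46% lower. The count of falls depended on the libraries, with 6 called lower without library 1, 4 without library 2, 4 without library 3 and 1 without library 4. DESeq2 called 3 lower, and edgeR without the library block called none of the 9. Nts, the neurotensin precursor, was at 356, 683, 267 and 726 CPM in positive against 268, 295, 247 and 422 in negative cells (log2 0.67 ± 0.10, edgeR adjusted p = 1.2e-07). An Nts UMI occurred in 25.6% ± 4.50 of positive and 15.2% ± 3.57 of negative cells (SD, n = 4), and the share was higher in all 4 libraries. Without library 4 the edgeR adjusted p of Nts was 0.0863 at log2 0.63. Tac1 and Tac2, the tachykinin precursors, had log2 values of -1.21 and -1.33, lower in all 4 libraries, with edgeR adjusted p of 0.304 and 0.282. Both were called by DESeq2 and by edgeR without library 1 (-1.81 and -1.97), Tac1 also without library 3 (-0.96) and Tac2 without library 2 (-1.02). Sst was detected in 7.89% ± 4.69 of positive and 13.6% ± 3.79 of negative cells, and its summed level varied from 9.20 to 1025 CPM over the positive libraries. Cartpt was found in 25.7% of positive and 21.2% of negative cells while its summed level was lower in all 4 libraries (log2 -0.59, edgeR adjusted p = 0.25), and it was called without library 1, 2 or 3 (-0.84, -0.61 and -0.41). Vip and Avp had no UMI in 541 positive cells, which allows a share of up to 0.555% with a UMI of either gene and sets no limit on expression, against 79 and 101 UMIs in negative cells, most of them in libraries 2 and 3 and in library 3 respectively. No UMI of any of 13 other peptide precursors was found in 29.4% of positive and 28.5% of negative cells.

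Peptide-processing genes went both ways. Of 13 tested, 4 were called, against 5.78% of all genes. Cpd, a carboxypeptidase of the secretory pathway, rose 2.01-fold (log2 1.01 ± 0.20) and 3 fell: Ctsl, a cathepsin that can cleave proenkephalin (-0.69 ± 0.12), Qpct, which forms pyroglutamate (-0.60 ± 0.19), and the granin gene Scg3 (-0.33 ± 0.10). DESeq2 and edgeR without the library block called none of the 13. The convertase Pcsk2 (log2 -0.17) and the carboxypeptidase Cpe were not called, and the list's median was -0.07 against -0.01 over all 7229 genes. The summed level of the list was 6207 ± 223 CPM in positive and 6239 ± 239 in negative cells (SD, n = 4). Qpct was not called without library 2, 3 or 4 (-0.46, -0.56 and -0.50), nor Scg3 without library 1, 3 or 4 (-0.31, -0.31 and -0.35).

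Genes shared by striatal spiny neurons rose together. Of 14 tested, 10 rose and none fell, against 3.32% of all genes higher and 2.46% lower. Their median log2 value was 0.74, and all 14 had a positive sign. Beside Ppp1r1b, Arpp21 and Crym, these included Bcl11b, the zinc-finger factor CTIP2 (1.08 ± 0.11), Foxp1 (0.93 ± 0.16), the G protein subunit genes Gng7 (0.83 ± 0.20) and Gnal (0.62 ± 0.09), and the phosphodiesterase genes Pde1b (0.65 ± 0.21) and Pde10a (0.59 ± 0.16). Bcl11b stood at 208, 280, 356 and 406 CPM in positive against 127, 145, 85.4 and 183 in negative cells. Pde1b was lower in the positive cells of library 2 (39.7 against 45.7 CPM). The summed level of all 16 listed genes was 2411, 2392, 3280 and 3885 CPM in positive cells and 1364, 1190, 1238 and 1632 in negative cells. The groups did not overlap, and the exact two-sided sign-flip test over libraries gave the smallest p that 4 pairs allow, which cannot pass 0.05. Adcy5 (0.59), Rgs9 (0.38), Ptpn5 (0.29) and Rasd2 (0.15) did not pass.

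This count depended on the test, the cells and the libraries included. It was 6 with DESeq2 and 4 with edgeR without the library block. It was 8 without the clusters led by non-neuronal or glutamatergic genes or of low depth, and 6 with a median of 0.39 without the spiny-like cluster, where 3.74% of 6811 genes tested were called. Leaving out 1 library gave between 6 (without library 4) and 11 calls (without library 1 or 2). Pde1b lost the call without library 3 (log2 0.36, edgeR adjusted p = 0.532) or 4 (0.52), Pde10a without library 3 (0.57) or 4 (0.48), and Gng7 without library 4 (0.74).

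The markers that divide spiny neurons into pathways did not move as a block. Their calls stand beside 5.78% of all genes tested. Of 6 direct-pathway markers tested, Ebf1 rose and Sfxn1, a mitochondrial serine transporter gene, fell (-0.44 ± 0.11, and -0.45 with an edgeR adjusted p of 0.0503 without library 1), while Drd1a (the D1 receptor, log2 0.35), Tac1, Pdyn and Isl1 (-0.43) were not called. Sfxn1 was not called without the library block. The indirect-pathway genes that Penk marks in striatum were barely counted in these libraries. Drd2, the D2 receptor, had 3 UMIs in positive and 0 in negative cells and 6 in all 10200 barcodes. Adora2a, an adenosine receptor, had 9 against 1, and the orphan receptor gene Gpr6 had 51 against 18, with 23, 7, 9 and 12 against 7, 6, 3 and 2 by library. None of the 3 had enough UMIs to enter the test, though Gpr6 entered without library 2 and was called higher (1.84, edgeR adjusted p = 0.00526), and of Sp9 and Grik3, which did, neither was called.

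Transcription factors of the 3 embryonic ganglionic eminences were counted by lineage, and the lists were not tested against each other. Over all genes tested, 3.32% were called higher and 2.46% lower. The lateral eminence gives rise to striatal projection neurons, and of its 16 factors tested 4 rose and 2 fell, with a median of 0.30. Meis2 stood at 447, 758, 785 and 702.6 CPM in positive against 212, 366, 293 and 389 in negative cells (2.11-fold, log2 1.08 ± 0.08, edgeR adjusted p = 2.92e-31). A Meis2 UMI was found in 67.1% ± 4.46 of positive and 34.8% ± 6.11 of negative cells (SD, n = 4). Six3 (0.73 ± 0.16) and Foxp1 rose as well as Ebf1, and Dlx1 (-1.44 ± 0.23) and Zic1 fell. Six3 had an edgeR adjusted p of 0.0587 without library 3 (log2 0.54). Without the library block, 2 of the 16 were called higher and 2 lower.

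The medial eminence is the source of many interneurons and cholinergic cells, and 3 of its 4 factors tested fell, against 2.46% of all genes. Lhx6 was at 19.4, 16.7, 24.5 and 25.2 CPM against 50.5, 60.2, 88.4 and 56.7 (2.84-fold lower, log2 -1.50 ± 0.24, edgeR adjusted p = 1.2e-07). Lhx8 (-2.10 ± 0.33), which had no UMI in the positive cells of library 3, and the chromatin organiser Satb1 (-1.96 ± 0.30) fell too. All 3 kept their calls without any single library, and DESeq2 and the fit without the block also called 3 of the 4. Of 3 caudal-eminence factors tested, Nr2f2 (-0.45) and Prox1 (-1.24) fell, and neither was called without library 3 (Nr2f2 -0.29 and Prox1 -1.09, edgeR adjusted p of 0.279 and 0.112). Nr2f2 was also not called without library 1 (-0.47), nor Prox1 without library 2 (-0.96) or 4 (-1.25), and neither DESeq2 nor the fit without the block called any of the 3.

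Of 7 tested genes of GABAergic identity that the cell rule did not use, 4 fell and none rose, and 2 of the 7 had a positive sign. Over all genes tested, 2.46% fell and 3.32% rose. DESeq2 called 2 of the 7 lower, and edgeR without the library block 1. Among those that fell were the homeobox gene Dlx1 and Dlx6os1, a noncoding RNA antisense to Dlx6 (-0.93 ± 0.23). The call of Dlx1 was lost without library 4 (-1.38, edgeR adjusted p = 0.253) and its value was -2.08 without library 1, and Dlx6os1 was not called without library 1 (-0.76). Gad1 and Gad2, the GABA-synthesising enzymes, helped to choose all cells of both groups, so their levels are given without a test. Gad2 was at 1607, 2125, 1955 and 2000 CPM in positive and 2002, 2447, 2433 and 2096 in negative cells, and Gad1 at 594 ± 89.8 against 680 ± 60.4 (SD, n = 4).

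The receptor genes called went both ways. Of 12 GABA-A subunit genes tested, 1 rose and 1 fell. The gene that rose was Gabra2 (log2 0.67 ± 0.13). Of 17 glutamate receptor genes, the metabotropic Grm8 rose (0.71 ± 0.23) and the kainate subunit gene Grik1 (-0.998 ± 0.179) and the NMDA subunit gene Grin3a (-0.47 ± 0.14) fell. These 2 of 12 and 3 of 17 stand beside 5.78% of all genes called. DESeq2 called none of the 12 and 1 of the 17, and edgeR without the library block none of either. Grm8 was not called without library 1, 2 or 3 (0.58, 0.62 and 0.73), nor Grin3a without library 2 or 4 (-0.36 and -0.35). Of 26 receptor genes of other neuropeptides, 3 had enough UMIs to be tested and none was called. Among 11 tested genes that mark BNST types, Calb1 (-0.48), Nxph1 (-1.26) and Id2 fell and none rose, against 2.46% and 3.32% of all genes. Without library 1, 5 were called lower, Greb1 (-2.13) and Slc17a8 (-1.18) being added, and without library 4 Prkcd was called higher (2.30). Ddc, an enzyme of monoamine synthesis, rose (0.63 ± 0.20, edgeR adjusted p = 0.0383), but not without library 1, 3 or 4 (0.55, 0.58 and 0.61).

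Immediate early genes, which neuronal activity and tissue dissociation induce, were higher for 3 of 8 tested: Junb (0.70 ± 0.17), Homer1 (0.50 ± 0.16) and Egr1 (0.37 ± 0.12). Over all genes tested, 3.32% were higher. Egr1 was lower in the positive cells of library 2 (125 against 154 CPM), and Fos itself was not called (0.24, edgeR adjusted p = 0.612). The summed level of the 20 listed genes was 623, 814, 1392 and 1199 CPM in positive against 528, 675, 814 and 947 in negative cells. None of the 3 calls remained without library 3, where Junb was 0.54, Homer1 0.42 and Egr1 0.19. Junb was also not called without library 2 (0.55), Homer1 without library 2 or 4 (0.54 and 0.46) and Egr1 without library 1 or 4 (0.31 and 0.43). DESeq2, edgeR without the library block and the fit without the spiny-like cluster called no immediate early gene. One call was made without the clusters set aside for non-neuronal or glutamatergic genes or low depth.

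**Figure D3:**
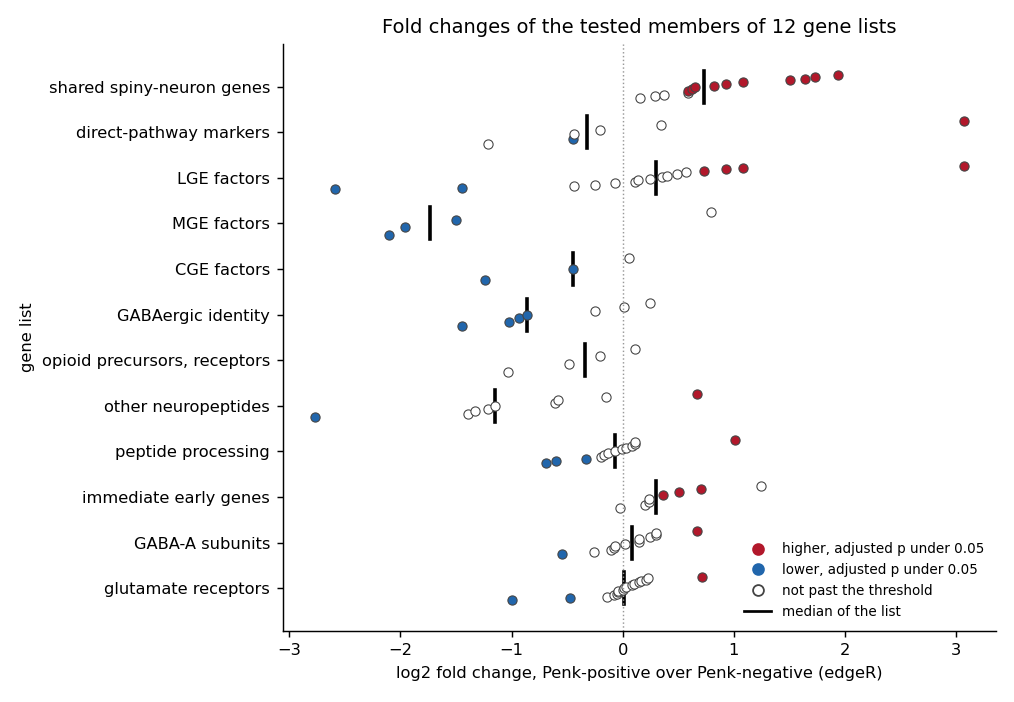
Log2 fold change of each tested member of 12 gene lists, Penk-positive over Penk-negative, with genes past an adjusted p of 0.05 filled in red (higher) or blue (lower), and a bar at each list's median. The shared spiny-neuron list has 10 higher genes and a median of 0.74, and the medial eminence list, labelled MGE, 3 lower genes of 4 (LGE and CGE, the lateral and caudal eminences).

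Markers of other cells were counted in both groups. No glial, vascular, neuroblast or dividing-cell marker was called with all 4 libraries, against 5.78% of all genes tested. Few had enough UMIs to be tested: 5 oligodendrocyte, 1 oligodendrocyte-precursor and 2 astrocyte markers. From the other lists, 1 endothelial or mural and 3 neuroblast or dividing-cell markers were tested, and no microglial one. So few tested genes cannot show that transcripts of such cells were absent. Without library 4, 2 of 3 oligodendrocyte markers then tested were called higher (median log2 1.11), and without library 1 the 1 oligodendrocyte-precursor marker tested was called lower (-0.51). Oligodendrocyte markers summed to 529, 344, 1876 and 1016 CPM in positive cells and 222, 154, 951 and 1275 in negative cells, higher in libraries 1 to 3, and their part in the results was not tested. Endothelial and mural markers were summed higher in the positive cells of all 4 libraries, at 42.1 ± 22.4 against 23.0 ± 10.8 CPM (SD, n = 4), and their part was not tested either. The microglial genes C1qa and P2ry12 and the cell-cycle genes Cdk1 and Mki67 had no UMI in either group. Clusters led by non-neuronal or glutamatergic genes or of low depth held 9.67% ± 1.89 of positive and 14.1% ± 1.99 of negative cells, lower in all 4 libraries. The part of these cells in the differences above was measured by leaving them out, which left 279 calls, 269 of them among the 418. Median genes detected were 2660, 2076, 1852 and 1608 in positive and 2592, 2138, 1810 and 1604 in negative cells, and mitochondrial shares were 4.11% ± 1.44 and 4.04% ± 1.32.

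Levels differed along the Penk count, as a description over cells with 0, 1, 2 to 3, 4 to 7, and 8 or more Penk UMIs. Arpp21 averaged 422, 392, 414, 604 and 1443 CPM over the 4 libraries in these classes, so its higher level lay in the upper 2 classes. Ppp1r1b was at 64.1, 37.3, 52.3, 74.8 and 258 CPM, with the top class alone standing out. Meis2 was at 342, 536, 437, 662 and 772 CPM. At 1 Penk UMI it was above the zero class in every library but library 2 (331 against 363 CPM). At 2 to 3 UMIs it was below the zero class in library 3 (248 against 327 CPM). The mean of Id2 fell off in order, at 86.0, 53.5, 39.9, 29.0 and 9.01 CPM. Every library had its highest Id2 at 0 and its lowest at 8 or more Penk UMIs, but only library 3 kept the full order. Zic1 was at 91.0, 34.7, 16.7, 17.2 and 14.2 CPM, its main step lying between 0 and 2 UMIs, and Lhx6 was at 56.9, 70.5, 46.4, 36.6 and 5.26. The spiny-like cluster held 4.12%, 1.85%, 4.26%, 6.01% and 27.6% of the cells of these classes. Depth moved with the top class, whose median was 4350 UMIs against 3348, 2937, 2977 and 2921 in the classes below it, and its part in these values was not tested.

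**Figure D4:**
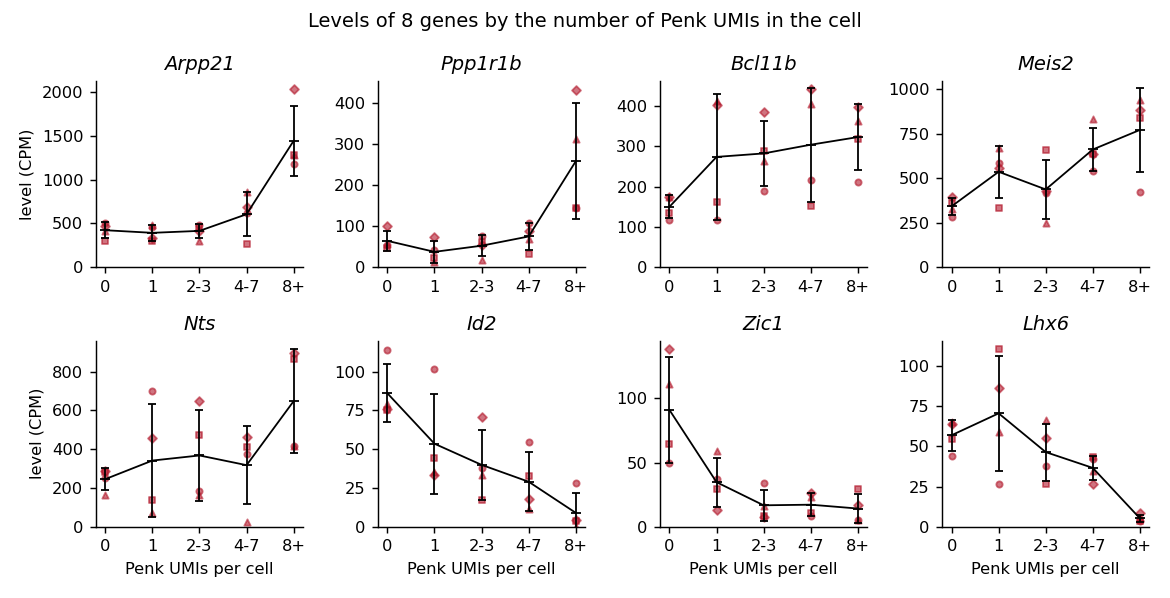
Level of 8 genes (CPM) in GABAergic neurons with 0, 1, 2 to 3, 4 to 7, and 8 or more Penk UMIs, with 1 point per library and the mean with SD over 4 libraries in black. Ppp1r1b and Arpp21 stand highest at 8 or more, at 258 and 1443 CPM, and Id2 goes from 86.0 down to 9.01.

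Most of these differences were not found when negative cells were also taken from the same cluster. With 495 positive cells matched to 495 negative cells on cluster and depth, 15 of 6918 genes were called (0.217%), and 11 of the 15 were among the 418. The depth match was not exact, with 301396 UMIs in positive against 268008 in negative cells of library 3. Of the 14 shared spiny-neuron genes none was called, with a median of -0.02, and none of the medial eminence factors tested was called. The clusters were drawn on such genes, so matching on them holds these genes near level by construction. Ebf1 (1.41 ± 0.25), the cell adhesion gene Alcam (0.63 ± 0.08), Klhl13 (0.42), S100a10 (0.93) and Ppid (0.56) were among the 6 genes higher within clusters. Cck (-0.78 ± 0.18), Id2 (-1.05 ± 0.25), Nfib (-1.18 ± 0.28), Pdyn (-1.12 ± 0.21), the phosphodiesterase gene Pde1c (-1.33 ± 0.27), Pcp4 (-0.56), Rgs10 (-0.59), Cdh4 (-0.79) and Zbtb20 (-0.41) were lower. Pdyn had an edgeR adjusted p of 0.0031 here against 0.772 without cluster matching. Alcam stood at 552, 530, 831 and 644 CPM against 333, 361, 427 and 475 in the comparison without cluster matching.

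Within the spiny-like cluster, Penk divided the cells along the pathway genes. Drd1a UMIs were found in 9 of its 82 positive cells and in 36 of its 64 cells without Penk. The counts were 10 and 40 for Pdyn, 12 and 39 for Tac1, 4 and 17 for Isl1, and 2 and 11 for Ebf1. Gpr6 ran the other way, with a UMI in 28 positive and 5 Penk-zero cells, and Adora2a in 7 and Drd2 in 3 positive cells and in no Penk-zero cell. The latter allows a share of up to 4.69% of the 64 with a UMI, and genes so sparsely captured set no limit on the cells that express them. The median depths were 3060 and 3094 UMIs. By library, Drd1a had 9, 0, 2 and 1 UMIs in positive and 23, 7, 18 and 15 in Penk-zero cells, so each library showed it.

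A fit of 60 positive against 60 depth-matched negative cells of this cluster called 7 of 1177 genes (0.595%). The depth match was less close in libraries 1 and 3, with medians of 5134 against 4632 and 3462 against 2914 UMIs. Drd1a (-2.58 ± 0.48, edgeR adjusted p = 0.00456), Pdyn (-2.45 ± 0.40), Tac1 (-1.71 ± 0.28) and Arl4a (-1.61 ± 0.30) were among the 5 lower genes. Arpp19 (1.16 ± 0.23) and Gucy1a3, a subunit of guanylate cyclase (1.21 ± 0.24), were higher. Library 2 gave 5 cells a group to this fit. The difference between this cluster and the others was called for 43 of 4815 genes (0.893%) in an interaction test, including Drd1a (-3.14 ± 0.60) and Pdyn (-2.28 ± 0.47) but not Tac1 (-0.12 ± 0.72, edgeR adjusted p = 0.999).

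**Figure D5:**
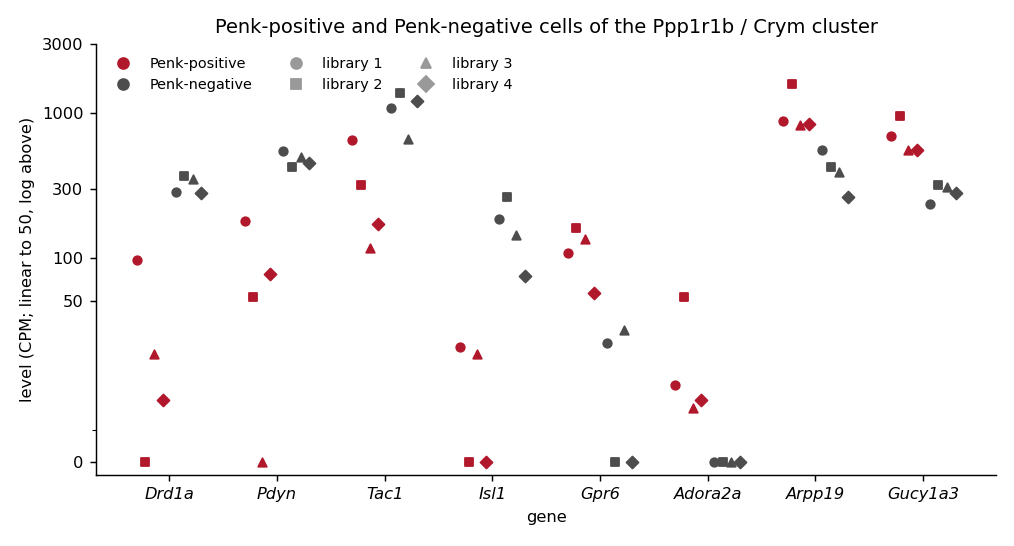
Level of 8 genes (CPM, linear up to 50 and logarithmic above) in 60 Penk-positive (red) and 60 Penk-negative (grey) depth-matched cells of the Ppp1r1b/Crym cluster, 1 point per library. The match was less close in libraries 1 and 3. Drd1a, Pdyn and Tac1 are lower in the positive cells of every library, and Arpp19 and Gucy1a3 higher.

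Other clusters divided differently, given here as counts of cells without a test. In the Tac2/Ebf1 cluster, Ebf1 was found in 25 of 43 positive and 11 of 131 Penk-zero cells, and Pnoc in 24 and 34. Tac2 occurred in 18 positive and 85 Penk-zero cells and Crh, the corticotropin-releasing hormone gene, in 10 and 79, although the positive cells were deeper, at a median of 9151 UMIs against 5043. In the Npy/Sst cluster, Sst was found in 8 of 36 positive and 54 of 110 Penk-zero cells, Calb1 in 9 and 66, and Pnoc in 1 and 23, at medians of 2612 and 2906 UMIs. The summed level of Sst went the other way, at 11551 CPM in positive and 9970 in Penk-zero cells, and 1052 of its 1284 UMIs in positive cells were in library 1. In the Six3/Nrgn cluster, Nts was found in 41 of 121 positive and 21 of 119 Penk-zero cells, and Sst in 9 and 28. Slc17a8 itself occurred in 28 of 65 positive and 74 of 111 Penk-zero cells of the cluster it leads, whose medians were 4373 and 3129 UMIs.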

How the data were processed

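The authors deposited 1 table of raw UMI counts per library, whole numbers per gene and cell barcode. Per the submitters' processing notes, bcl2fastq 2.18.0.12, STAR 2.4.2a and Picard 2.2.4 were used with the builds mm10 and GRCm38; the annotation, the strand setting and how barcodes were selected are not given in the sources used here. Of 20136 gene names, 18830 (93.5%) were found in GENCODE vM21, the source of positions and of the Penk sequence.

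Cells were chosen by the thresholds in the report and matched by the assignment with the smallest summed distance in log total UMIs, which left a median difference within 1.01-fold and a largest of 1.56-fold, in library 1. Sums per library and group held 327097 to 1082765 UMIs in positive cells. They were tested with edgeR 4.0.16 (TMM scaling, filterByExpr, robust quasi-likelihood fit, library as block), after Penk and the genes of the cell rule were taken out. Both sums of a library share 1 pool of mice, and their deviations from the group means correlated at 0.47, 0.34, 0.45 and 0.35 in libraries 1 to 4. Across libraries 1 and 2 the correlation was 0.30, little below that within library 2. Across the other pairs of libraries it ran from -0.39 to 0.14. On counts simulated from these sums, of which 7041 genes passed the filter (7229 in the data), with 200 changed by 2-fold, this test recovered 89.5% with 2.72% wrong calls, and DESeq2 1.42.0 recovered 54.0% with 0% wrong. The simulation gave all genes the same dispersion (spread beyond counting error) and both groups the same library effects. Its error rates therefore need not hold for the data. Clusters came from scanpy 1.11.5 (2000 variable genes without Penk, 30 components, Leiden resolution 1), and doublets from Scrublet at an expected rate of 0.05, which called 58 of 4239 barcodes (1.37%). Doublets were kept in the main comparison and removed as an alternative.

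Members and gene lists were chosen with earlier results of these data known. Named genes are the 12 that rose most and the 12 that fell most at an adjusted p under 0.05, with at least 40 UMIs and 1 direction in all libraries, called members of the lists, Pdyn, Pnoc and the opioid receptor genes, and genes that lead clusters. Members of lists named without a call, and genes called within clusters or within the spiny-like cluster, were chosen after their values were seen. Some genes that are part of the counts are not reported here by name. Drd1, Gad1os and Plpp3 were read under the tables' names Drd1a, 1500002O10Rik and Ppap2b. Alternatives changed the scaling, filter, block, thresholds, matching, depth, doublets, clusters and libraries. Leaving out the clusters set aside, and the fit within the spiny-like cluster with its interaction test, were chosen after seeing the data.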

Additional observations from a re-analysis of the deposited data

Results flagged for a closer look

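In 5 of 65 sets of 4 library values, 1 library stood apart from the other 3, where chance gives about 1 in 20 (3.25 sets). The log2 difference of Ppp1r1b was 4.77 in library 3 against 1.71, 1.51 and 1.68, as its negative cells there held 6.10 CPM. That of Ramp1 was 4.01 in library 3 against 1.11, 1.12 and 1.47, and that of Lhx8 was -4.48 there against -2.01, -1.75 and -1.83, with no Lhx8 UMI in its positive cells. Cpd had 2.37 in library 2 against 0.83, 0.81 and 0.66. The Penk-positive share was 19.5% in library 3 and 24.4% to 24.8% in the others. These library differences add 1 CPM to each level before the log.

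The difference between positive and negative cells was itself different in the spiny-like cluster and in the other clusters for 11 of 112 listed genes tested (edgeR interaction test, adjusted over 4815 genes). Of those 4815 genes, 43 (0.893%) were called. The interaction was negative, the spiny-like value being the lower, for 10 of the 11, among them Arpp21 (-1.34), Bcl11b (-1.46), Crym (-2.56), Drd1a (-3.14), Ebf1 (-5.58), Isl1 (-2.48), Meis2 (-0.97), Pdyn (-2.28) and Ppp1r1b (-1.53). It was positive for Calb1 (1.58), whose log2 value was 0.78 within the spiny-like cluster and -0.81 outside it. Arpp21 had -0.30 within and 1.01 outside, Bcl11b -0.36 and 1.08, Crym -0.83 and 1.74, Ppp1r1b -0.25 and 1.26, and Meis2 0.13 and 1.08. Ebf1 had 3.68 outside and too few UMIs for a separate fit within. The clusters were drawn on these genes, so values within the spiny-like cluster are held close together for the genes that define it.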

How the results depend on the processing

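The main comparison called 418 genes, 240 higher and 178 lower. DESeq2 called 98 genes (57 higher, 41 lower), 96 of them among the 418. Without the library as a block, edgeR called 43 genes (25 higher, 18 lower), all among the 418, so most calls depend on the pairing by library. Matching on cluster and depth gave 15 (6 and 9), leaving out the spiny-like cluster 255 (152 and 103), a mitochondrial share of at most 5% 264 (155 and 109), and neuronal genes at 1% or more 238 (140 and 98). Thinning each cell to 1000 UMIs gave 84 (59 and 25, 70.2% higher against 57.4%), and without the clusters set aside 112 genes were lower. Leaving out 1 library gave 230 to 328 calls, 148 to 186 higher and 82 to 142 lower, fewest without library 4. The Penk-positive share was 30.4% at 1 or more UMIs, 16.8% at 4 or more and 14.8% after thinning.

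For 60 named genes, 991 alternative values kept direction and side of the threshold, 237 lost the call, 4 gained it and 19 changed sign. The signs changed on matching by cluster and depth for Ppp1r1b (-0.31), Arpp21 (-0.083), Crym (-0.61), Mctp1 (-0.11), Col6a1 (-0.47), Ramp1 (-0.38), Ptk2b (-0.14), Calb1 (0.041), Gng7 (-0.21), Homer1 (-0.14), Junb (-0.035) and Pde1b (-0.18). Pdyn was 0.10 at a mitochondrial share of at most 5%. Oprk1 was -0.011 at 1 or more Penk UMIs, -0.17 at 4 or more, -0.11 without barcodes ending in an undetermined base, -0.019 to 0.25 over the fits without 1 library (-0.0002 without library 1) and -0.14 without the clusters set aside. The cause was not tested. Drd2, Adora2a, Gpr6, Oprm1 and Oprd1 had too few UMIs for the main test, and the part of depth in this was not tested.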
